A study of Mus musculus with 8 samples.

Results

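Ribosome biogenesis genes and direct targets of Myc were examined as a list of 39 mouse genes. It holds subunits of RNA polymerase I, proteins of the small nucleolar RNPs (snoRNPs), nucleolar proteins, assembly factors of both ribosomal subunits, and 3 enzymes of nucleotide and polyamine synthesis. The genes were chosen by name. Of the 39, 36 had a probe set with a single gene symbol and were measured, among 17097 such genes on the array. Mybbp1a, Tsr1 and Gnl3 had none and were not analysed here. A gene with several probe sets, as 18 of the 36 had, was read from the one with the highest mean over the 8 arrays.

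The study asked how well fibroblasts turn into hepatocyte-like cells (iHeps) with and without c-Myc and Klf4, and the lines with c-Myc were set against the line without it, against fibroblasts and against hepatocytes. Retroviruses carried Hnf4a, Foxa3, c-Myc and Klf4 into line 4a3CK. In line 4a1CK, Foxa1 took the place of Foxa3. Line 4a3 was given Hnf4a and Foxa3 alone. These 3 lines were grown from transduced fibroblasts in hepatocyte medium, were sampled at passage 10, and gave 1 array each. Mouse embryonic fibroblasts (MEF 1 and MEF 2) came from C57/B6 embryos of day 13.5, with the removal of head and internal organs stated for MEF 1. Primary hepatocytes (PH 1, PH 2 and PH 3, the last bearing no number in its title) came from male C57/B6 mice aged 8 to 10 weeks by collagenase perfusion and were then cultured. The 2 lines with c-Myc and Klf4, called the CK lines below, differ from each other in their Foxa factor, and c-Myc cannot be told apart from Klf4, since both were always given together.

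Ribosomes are built in the nucleolus, where RNA polymerase I makes the ribosomal precursor RNA, snoRNPs direct its chemical modification, and a large set of assembly factors cuts, folds and exports the subunits. Myc is a transcription factor that pairs with Max, binds E-box sequences, and is known as a broad activator of this programme and of the enzymes that feed it with nucleotides and polyamines. In liver the programme is known to rise during regeneration and in tumours.

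The E-box CACGTG, the site bound best by the Myc and Max pair, was looked for in the 250 bases before the annotated start of each gene (RefSeq, GRCm38.p6), where 33 of the 39 genes had an entry. It reads the same on both strands. It stood in 2 of the 33 genes (6.06%), against 6.86% of 27025 genes in that table. Both windows are shown because they are the ones in the list that hold this site. The capitals mark it. In Nop2 (chr6:125131633-125131882, + strand) it begins 60 bases before the start, and in Imp4 (chr1:34439579-34439828, + strand) 121 bases before it.
Nop2: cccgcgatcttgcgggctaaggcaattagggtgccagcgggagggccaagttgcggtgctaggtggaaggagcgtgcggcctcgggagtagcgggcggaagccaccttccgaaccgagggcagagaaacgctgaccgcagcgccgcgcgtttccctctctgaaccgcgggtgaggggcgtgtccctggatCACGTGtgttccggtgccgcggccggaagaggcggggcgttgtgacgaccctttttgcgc
Imp4: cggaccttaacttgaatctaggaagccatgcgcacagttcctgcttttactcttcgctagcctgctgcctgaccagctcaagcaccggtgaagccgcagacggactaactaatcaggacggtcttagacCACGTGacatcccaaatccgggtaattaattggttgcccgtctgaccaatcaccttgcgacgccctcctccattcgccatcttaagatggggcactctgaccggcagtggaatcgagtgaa
The related site CACGCG, searched on both strands, stood in 6 of the 33 genes (18.2%), against 8.65% of genes in the table. These were Nip7, Pes1, Mybbp1a, Odc1, Bysl and Nolc1. A match describes the letters in this window and is no evidence of binding.

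Values are log2 signals as deposited, so a difference of 1 is 2-fold, and levels are compared only within a gene. The median over all genes lay between 4.93 and 5.06 on 7 arrays and at 5.80 in PH 3, so each comparison was also read after subtracting the array medians. PH 1 and PH 2 were nearly alike, as the SD over all genes of their differences was 0.159, against 0.57 for MEF 2 and MEF 1. The bacterial hybridization controls averaged 8.96 to 9.14 in the lines, 8.03 and 8.23 in the MEF arrays, 8.36 and 8.61 in PH 1 and PH 2 and 8.95 in PH 3. Fibroblast markers had a median of 3.61 to 3.63 in the lines against 10.95 and 9.32 in MEF 1 and MEF 2. Hepatocyte markers had a median of 7.38 in 4a3CK, 4.58 in 4a1CK and 8.56 in 4a3, against 11.65 to 11.81 in the PH arrays. Albumin, the main plasma protein, read 3.80 and 4.01 in the CK lines and 9.30 in 4a3. Other markers set the CK lines apart from each other. Transferrin (Trf) read 11.68 in 4a3CK and 4.58 in 4a1CK, against 8.21 in 4a3. Fgb read 10.92 and 3.36 against 12.21, and Apoa1 12.66 and 10.39 against 12.82. The mean of the CK lines lay above 4a3 for 0 of the 9 markers. The sources do not say that arrays of a group come from separate animals or cultures, so each p-value reflects the spread among these arrays alone. Their small number sets the precision. In such bulk samples, fewer cells of a type and less RNA per cell cannot be told apart.

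The signal for Myc itself did not set the CK lines apart from 4a3. Myc read 9.38 in 4a3CK and 8.48 in 4a1CK, against 8.48 in 4a3, with 6.69 and 8.71 in MEF 1 and MEF 2 and 9.14, 8.95 and 9.72 in the PH arrays. One CK line thus lay above 4a3 and the other at its level, and all 3 lines lay above MEF 1. Mycn, a relative of Myc, read 12.11, 11.97 and 11.75 in 4a3CK, 4a1CK and 4a3, against 4.47 and 4.67 in the MEF arrays and 4.73 to 6.25 in the PH arrays. The limma adjusted p of the Mycn difference was 0.000658 for the CK lines against MEF and 0.000337 against PH, and 4a3 read nearly as high as the CK lines. Mycl read 4.55 to 4.68 in the lines, 4.71 and 4.85 in the MEF arrays and 4.71 to 5.96 in the PH arrays. Klf4 read 9.43 and 9.56 in the CK lines, against 10.60 in 4a3, 8.56 and 9.12 in MEF 1 and MEF 2, and 6.28 to 7.50 in the PH arrays. Hnf4a read 9.59 in 4a3CK, 5.50 in 4a1CK and 6.04 in 4a3. Foxa1 and Foxa3 read 3.87 to 4.19 in the lines, although each line had received one of them. Whether the probe sets read the transduced copies, which may lack the native ends of the transcript, is not given in the sources used here, so these levels do not measure delivery.

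The CK lines lay above 4a3 for most of the 36 genes, by a median of 0.80 on the log2 scale, but no gene of the list passed the test. The largest differences were those of the helicase gene Ddx21, the spermidine synthase gene Srm and Cad, which begins pyrimidine synthesis. Rcl1, a factor for small subunit rRNA cleavage in yeast, lay below 4a3 in both CK lines. A gene was called at a limma adjusted p under 0.05 with a difference of at least 1. By that rule 0 of 36 were called higher and 0 lower, against 2 genes higher (0.0117%) and 6 lower (0.0351%) among all 17097. At an unadjusted p under 0.05, 2 were higher and 0 lower, against 0.988% and 1.03% of all genes. The 2 were Ddx21 and Srm. After subtracting array medians the counts were 2 and 1, against 2.51% and 1.95% of all genes. The genes behind the counts after subtraction were Ddx21 and Noc4l on the higher side and Rcl1 on the lower. Their differences were 1.59, 0.98 and -1.14, and Srm (1.19) was no longer among them. The 4a3 group is 1 array and is assumed to vary like the other groups, so every difference from it rests on that array.

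**Figure D1:**
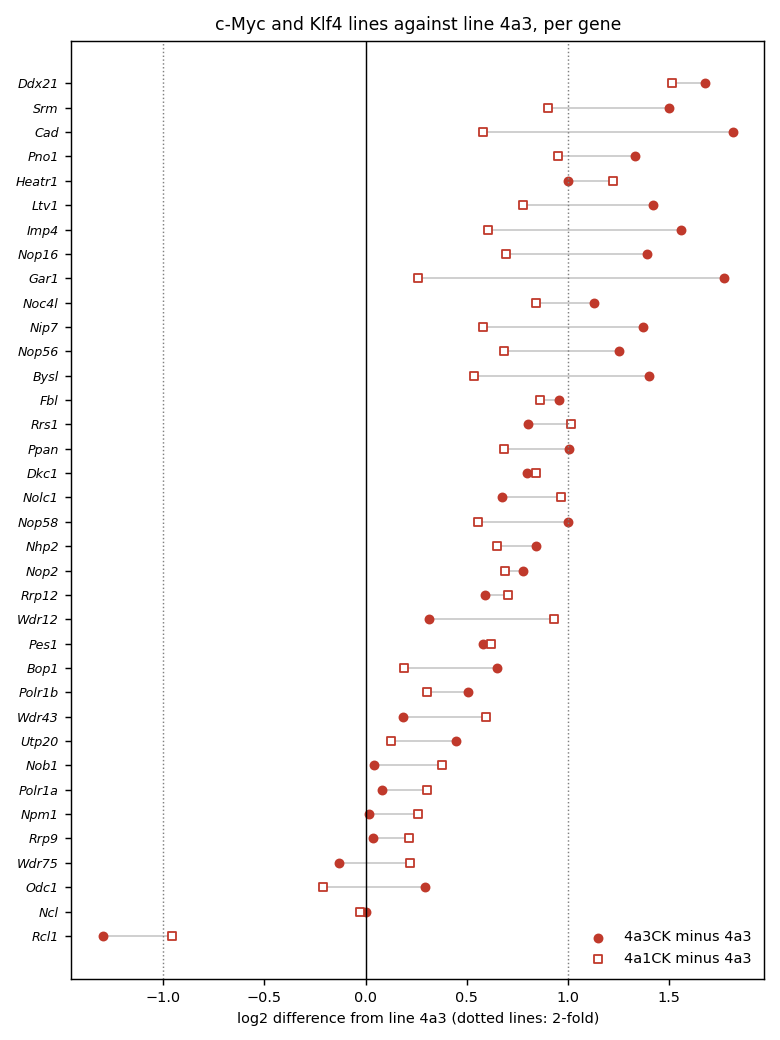
Log2 difference of 4a3CK (filled circles) and of 4a1CK (open squares) from line 4a3 for the 36 measured genes, 1 array per line, sorted by the mean of both. Of the 36 genes, 32 have both marks right of 0 and Rcl1 alone has both left of it.

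Counted array by array, both CK lines lay above 4a3 for 32 of the 36 genes, against 29.3% of all genes and 38.8% of the 6515 genes with a mean of at least 6, a level more like that of the list. Both lay below it for 1, Rcl1, against 34.9% of all genes. After the array medians were subtracted, both CK lines lay above 4a3 for 29 genes (26.8% of all genes). Line 4a3CK lay at least 2-fold above 4a3 for 15 genes (6.47% of all genes) and 4a1CK for 3 (3.29%). Both did so for 2, Ddx21 and Heatr1 (0.819%), and after subtracting array medians for Ddx21 alone (0.836%). The median difference from 4a3 was 0.80 in 4a3CK and 0.61 in 4a1CK, against -0.02 and -0.01 over all genes. The CK lines share 4a3 as their reference, so these counts are not independent of each other. Between the CK lines themselves, 4a3CK lay above 4a1CK by a median of 0.18, and at least 2-fold for Gar1 (1.52) and Cad (1.24), which is 5.56% of the list and 6.14% of all genes.

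**Figure D2:**
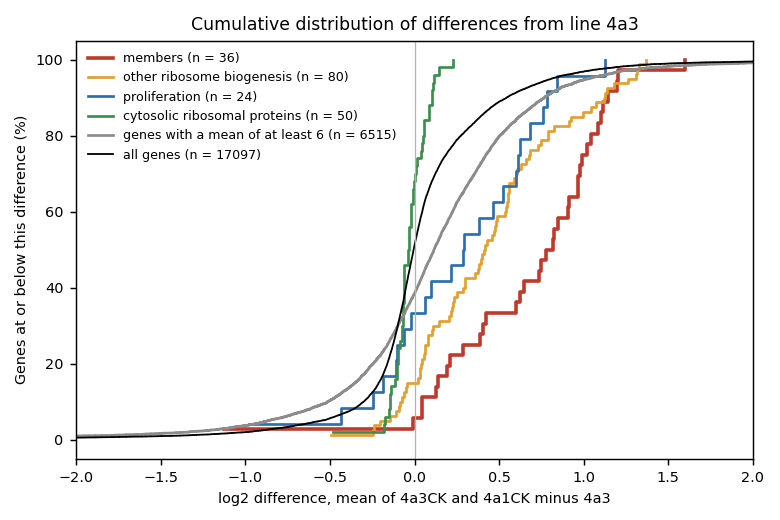
Cumulative share of genes, in percent, at or below each log2 difference of the CK line mean from 4a3, for the 36 measured genes, 3 other gene lists, genes with a mean of at least 6 and all genes. The curve of the 36 genes lies to the right of the others over most of its length, with a median of 0.80, and the ribosomal proteins rise steeply around their median of -0.03.

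The RNA polymerase I subunits were among the genes with small differences. Polr1a, the largest subunit, read 6.90 and 7.12 in the CK lines against 6.82 in 4a3, with 6.0 and 7.09 in MEF 1 and MEF 2 and 6.40, 6.28 and 7.21 in PH 1, PH 2 and PH 3. Polr1b, another core subunit, read 5.31 and 5.11 in the CK lines against 4.81 in 4a3, with 5.66 and 6.44 in the MEF arrays and 5.41, 5.60 and 6.33 in the PH arrays. Both CK lines lay above 4a3 for each gene, by a fitted 0.19 for Polr1a and 0.41 for Polr1b. The difference of Polr1a is smaller than that between MEF 2 and MEF 1 (1.09).

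The snoRNP proteins stood nearer to the top. Fibrillarin (Fbl), the methyltransferase of the box C/D particles, read 9.44 and 9.34 in the CK lines against 8.48 in 4a3, with 8.93 and 10.11 in MEF 1 and MEF 2 and 8.73, 8.51 and 9.59 in the PH arrays. Nop56, a scaffold of the same particles, read 9.0 and 8.43 in the CK lines against 7.75 in 4a3, with 7.92 and 9.33 in the MEF arrays and 8.67, 8.47 and 9.21 in the PH arrays. Line 4a3 was the lowest of the 8 arrays for both genes, and MEF 2 the highest. Nop58, its partner scaffold, lay above 4a3 by 0.78 in the fit. In the box H/ACA particles, dyskerin (Dkc1), the pseudouridine synthase, read 8.96 and 9.01 in the CK lines against 8.16 in 4a3, with 7.60 and 9.30 in MEF 1 and MEF 2 and 8.36, 8.17 and 8.67 in the PH arrays. Both CK lines lay above all 3 PH arrays and between the MEF arrays. Nhp2, a core protein of these particles, had nearly the same order of arrays, with 9.41 and 9.21 in the CK lines, 8.56 in 4a3, 7.84 and 9.53 in MEF 1 and MEF 2, and 8.92, 8.74 and 9.12 in the PH arrays. Gar1, also a core protein, read 8.84 in 4a3CK but 7.33 in 4a1CK, against 7.07 in 4a3, so its fitted difference of 1.02 came mostly from one line. The median difference was 0.91 over the 3 box C/D genes and 0.82 over the 3 box H/ACA genes.

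Among the nucleolar proteins, Ddx21 had the largest difference of the whole list. This RNA helicase takes part in rRNA transcription and processing. It read 8.35 and 8.18 in the CK lines against 6.67 in 4a3, with 7.61 and 9.03 in MEF 1 and MEF 2 and 7.94, 7.60 and 8.67 in PH 1, PH 2 and PH 3. Line 4a3 was the lowest of all arrays, and on this probe set the CK lines lay within the range of the PH arrays and of the MEF arrays. The fitted difference was 1.60 ± 0.64 (SE, n = 2 and 1; limma unadjusted p = 0.0364, adjusted p = 1.0), with both CK lines higher. Its other probe set gave 1.43, but placed the CK lines lower beside the other cells. There they read 6.02 and 6.58, below all PH arrays (6.81 to 7.13), and 4a3CK was also below MEF 1 (6.28). Nolc1, a chaperone of snoRNPs, read 7.95 and 8.24 in the CK lines against 7.27 in 4a3. Nucleophosmin (Npm1), an abundant nucleolar chaperone, read 11.78 and 12.03 against 11.77, with 11.07 and 11.49 in the MEF arrays and 11.02, 11.01 and 11.52 in the PH arrays. All 3 lines lay above all MEF and PH arrays for Npm1, while the CK lines and 4a3 differed by 0.14. The single probe set of nucleolin (Ncl) stayed between 3.37 and 3.98, under the dim level of 4.09 (percentile 40 of all values) on every array, so it gave no usable level.

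The small subunit assembly factors, 13 genes, had a median difference of 0.65 and the widest spread. Pno1, needed for late small subunit maturation, read 8.32 and 7.93 in the CK lines against 6.98 in 4a3, with 7.62 and 9.06 in MEF 1 and MEF 2 and 8.28, 8.26 and 9.22 in the PH arrays. Ltv1, which leaves the particle late in its assembly, read 7.92 and 7.28 against 6.50, with 7.14 and 7.95 in the MEF arrays and 7.22, 7.09 and 8.63 in the PH arrays. Imp4, a part of the early processome and one of the promoters shown above, read 6.97 and 6.01 against 5.41, with 6.31 and 7.43 in the MEF arrays and 7.12, 7.01 and 7.62 in the PH arrays. For these 3 genes 4a3 was the lowest of the 8 arrays, and 4a3CK stood higher than 4a1CK. The fitted differences were 1.14 for Pno1, 1.10 for Ltv1 and 1.08 for Imp4.

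Heatr1, a processome protein also needed for transcription by RNA polymerase I, read 5.93 and 6.15 in the CK lines against 4.93 in 4a3, with 6.31 and 7.97 in MEF 1 and MEF 2 and 7.48, 7.23 and 7.89 in the PH arrays. On this probe set both CK lines were at least 2-fold above 4a3 and still below every MEF and PH array. Its 2 dimmer probe sets gave differences from 4a3 of 0.00 and 0.02, so the probe sets of Heatr1 disagree. Noc4l, a small subunit factor, showed the same order of groups, with 5.82 and 5.53 in the CK lines, 4.69 in 4a3, 6.24 and 7.11 in the MEF arrays and 6.65, 6.54 and 7.05 in the PH arrays. Its 2 other probe sets lay above 4a3 too, by 1.35 and 0.76, and had both CK lines below all PH arrays. On neither were both CK lines below both MEF arrays. They read 6.25 and 6.04 against 5.21 in MEF 1 on one, and 5.88 in 4a3CK against 5.85 in MEF 1 on the other. Rrp12, an export factor, read 4.30 and 4.42 in the CK lines and 3.71 in 4a3, the last of which is under the dim level. Bysl lay above 4a3 by 0.97, Wdr43 by 0.39, Utp20 by 0.29, Nob1 by 0.21 and Rrp9 by 0.13. Wdr75 stayed between 3.38 and 4.61 on all arrays, close to the dim level, and differed by 0.04.

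Rcl1 ran the other way. It read 8.32 and 8.66 in the CK lines against 9.62 in 4a3, with 6.98 and 7.45 in MEF 1 and MEF 2 and 8.09, 8.18 and 9.17 in PH 1, PH 2 and PH 3. Line 4a3 was the highest of all 8 arrays, the only such case in the list (5.42% of all genes), and both CK lines lay above both MEF arrays. The fitted difference from 4a3 was -1.13 ± 0.52 (SE, n = 2 and 1; limma adjusted p = 1.0), with both CK lines lower. Rcl1 had a single probe set.

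The 8 large subunit factors all lay above 4a3 in both CK lines, by a median of 0.79 in the fit. Nop16, a nucleolar protein of the early large subunit, read 7.96 and 7.26 in the CK lines against 6.57 in 4a3, with 6.12 and 7.46 in MEF 1 and MEF 2 and 6.92, 6.85 and 8.16 in the PH arrays. Nop2, an rRNA methyltransferase and the other promoter shown above, read 6.85 and 6.75 against 6.06, with 6.08 and 7.59 in the MEF arrays and 6.88, 6.93 and 7.55 in the PH arrays. Both genes had their lowest values in 4a3 and MEF 1. The partners Pes1, Bop1 and Wdr12, which form one complex that processes the large subunit rRNA, differed from 4a3 by 0.60, 0.42 and 0.62 in that order. Bop1 read 5.65 and 5.19 in the CK lines against 5.00 in 4a3, with 6.10 and 7.21 in MEF 1 and MEF 2 and 6.74, 6.61 and 6.71 in the PH arrays, so that all 3 lines lay below every MEF and PH array. Wdr12 read 7.75 and 8.37 against 7.44, with 6.58 and 7.88 in the MEF arrays and 6.66, 6.53 and 7.94 in the PH arrays, so the members of this complex were not ordered alike across the arrays. Rrs1 lay above 4a3 by 0.91, Ppan by 0.85 and Nip7 by 0.98.

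Among the 3 enzymes, 2 lay well above 4a3 and 1 did not. Srm, which makes spermidine, read 8.67 and 8.07 in the CK lines against 7.17 in 4a3, with 8.95 and 9.97 in MEF 1 and MEF 2 and 8.13, 7.92 and 8.33 in the PH arrays. Its fitted difference was 1.20 ± 0.50 (SE, n = 2 and 1; limma unadjusted p = 0.0422, adjusted p = 1.0), with both CK lines higher, and all 3 lines were below both MEF arrays. Cad read 8.73 in 4a3CK and 7.49 in 4a1CK, against 6.91 in 4a3, with 6.64 and 7.87 in MEF 1 and MEF 2 and 6.43, 6.53 and 7.22 in the PH arrays. Its fitted difference was 1.20 ± 0.68 (SE, n = 2 and 1; limma adjusted p = 1.0), and 4a3CK was the highest of all arrays. A second Cad probe set gave 1.11 and a faint further one, at most 4.24, gave -0.01. Ornithine decarboxylase (Odc1), the rate-limiting enzyme of polyamine synthesis, read 6.32 and 5.82 in the CK lines and 6.03 in 4a3, so 4a3 lay between them. All 3 lines lay below the MEF arrays (6.80 and 7.41) and the PH arrays (7.18, 7.34 and 7.20).

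**Figure D3:**
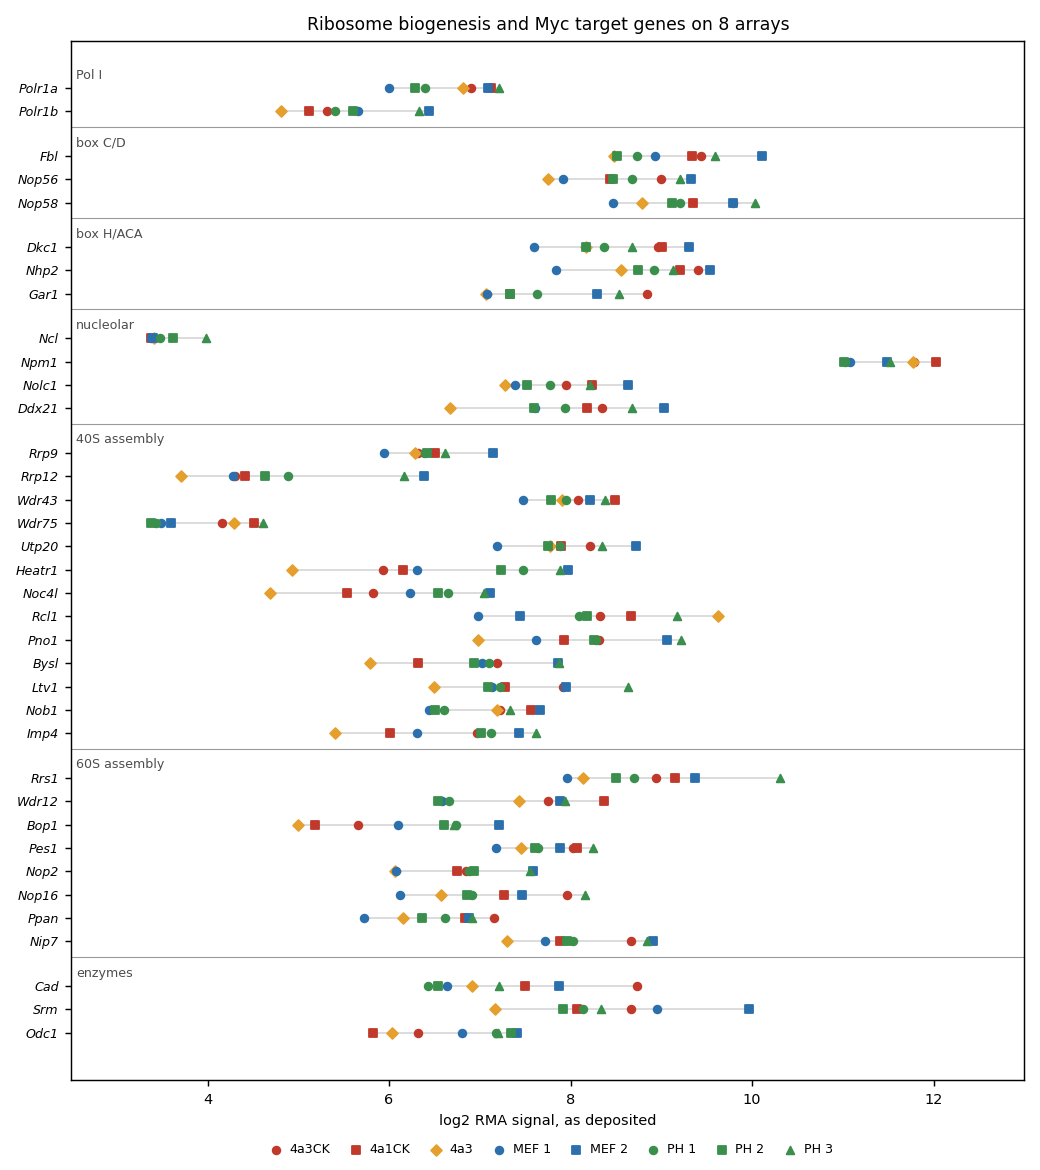
Deposited log2 signal of the 36 measured genes on the 8 arrays, grouped by role. CK lines are red, 4a3 orange, MEF arrays blue and PH arrays green, with 1 mark per array. The 4a3 mark is the leftmost for 17 genes and the rightmost for Rcl1.

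Line 4a3 was also low beside the other cells for many of these genes. It had the lowest value of all 8 arrays for 17 of 36 genes, against 12.2% of all genes, both as deposited and after subtracting array medians (10.6%). Among genes with a mean of at least 6 these shares were 20.5% and 19.0%. The fibroblast array MEF 1 had the lowest value for 14 genes (21% of all genes), or for 12 after subtraction (15.4%). Line 4a3 lay below all 3 PH arrays for 27 genes (34.5% of all genes, 48.2% of those with a mean of at least 6), or for 22 after subtracting array medians (26.1% and 40%). MEF 2 had the highest value for 18 genes (6.18% of all genes), or 23 after subtraction (12.6%). PH 3 had it for 11 (66.4%), or 1 after subtraction (9.5%). The counts for 4a3 use the same array as the differences above and are no separate evidence.

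Across all probe sets of the 18 genes with several, 23 further probe sets passed the dim level on at least 1 array. A Heatr1 and a Cad probe set did so in PH 3 alone. They read 3.61 to 3.63 and 3.77 to 3.81 in the lines, under the dim level, so their differences from 4a3 carry little. The CK mean lay above 4a3 in 22 of the 23, with a median difference of 0.53 over the 23. Both CK lines did in 16, this Heatr1 probe set among them. The other 7 of these probe sets, among them 2 of Polr1a and 1 of Heatr1, had the 4a3 value at or above at least one CK line.

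Against MEF the CK lines had no common direction, and the MEF arrays themselves differed strongly for these genes. By the limma rule 0 of 36 genes were called higher and 0 lower, against 0.807% and 2.49% of all genes. Over all genes these were 138 higher and 426 lower calls, and 413 and 569 after subtracting array medians. At an unadjusted p under 0.05, 1 was higher (6.84% of all genes) and 4 were lower (8.45%). The median difference was 0.09, against 0.16 over all genes, and was -0.45 without MEF 1 and 0.76 without MEF 2. Rcl1 had the largest positive difference (1.28 ± 0.42, adjusted p = 0.182), followed by Cad (0.86 ± 0.55, adjusted p = 0.534). After subtracting array medians, or without PH 3, Rcl1 was called higher (adjusted p = 0.0309 and 0.0243). On the other side were Bop1 (-1.23 ± 0.40, adjusted p = 0.172), Heatr1 (-1.10 ± 0.52, adjusted p = 0.373) and Srm (-1.09 ± 0.41, adjusted p = 0.243). Errors are SE with n = 2 and 2. Further probe sets gave -0.66 and 0.28 for Cad and 0.61 and -0.31 for Heatr1, so their direction differed between probe sets. On the probe sets used, the groups did not overlap for Rcl1, with both CK lines above both MEF arrays, nor for Bop1, Heatr1 and Srm, with both CK lines below.

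MEF 2 lay above MEF 1 for all 36 genes, against 53.2% of all genes and 60.4% of genes with a mean of at least 6. It was at least 2-fold above MEF 1 for 25 of them, against 2.68% of all genes and 4.68% of genes with a mean of at least 6. The median difference was 1.19 and the range 0.03 to 2.10, and with array medians subtracted the counts were again 36 (52.3% of all genes) and 25 (2.64%). Rrp12 differed most, at 6.38 in MEF 2 against 4.28 in MEF 1, followed by Dkc1 (1.70), Nhp2 (1.69) and Heatr1 (1.66). The smallest differences were those of Ncl (0.03), which was under the dim level, and Wdr75 (0.11), close to it, then Npm1 (0.41) and Rcl1 (0.47). These are 2 arrays of one group, and no test applies to their difference.

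Other lists were read for the same pair of arrays. Of 10 macrophage markers, 5 lay higher in MEF 2, near the 53.2% of all genes. The adaptor Tyrobp read 6.68 in MEF 2 against 4.2 in MEF 1 and Cd68 6.23 against 4.31, while the scavenger receptor Marco read 3.11 against 4.32 and the receptor Csf1r 4.54 against 4.62. The list as a whole had a level median of 5.99 in MEF 2 against 4.66 in MEF 1, but a median difference of 0.03. Of 10 fibroblast markers, 1 lay higher in MEF 2 and 7 lay at least 2-fold lower, with a median difference of -1.44. Genes of proliferation lay higher in MEF 2 for 23 of 24, by a median of 0.73, with Mki67, a marker of cycling cells, at 9.04 against 8.35. Myc itself read 8.71 in MEF 2 against 6.69 in MEF 1. The part of these in the difference of the ribosome biogenesis genes was not tested.

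The CK lines stood between the MEF arrays for 15 of 36 genes, among them Fbl, Nop56, Dkc1, Nhp2, Ddx21 and Nop2, against 7.17% of all genes. They lay above both MEF arrays for 4 genes (Npm1, Wdr75, Rcl1 and Pes1; 45.9% of all genes) and below both for 6 (Polr1b, Heatr1, Noc4l, Bop1, Srm and Odc1; 20.8%). These shares over all genes are not like for like, since a wide gap between the MEF arrays leaves more room between them. MEF 2 was at least 2-fold above MEF 1 for 25 of the 36 genes, against 2.68% of all genes. Among the genes named here, other probe sets of Dkc1, Ddx21, Pes1, Heatr1 and Noc4l did not all keep these positions. Set against MEF 1, the median difference was 0.75 in 4a3CK and 0.62 in 4a1CK. Set against MEF 2 it was -0.39 in 4a3CK and -0.66 in 4a1CK. Line 4a3 had a median difference of 0.01 from MEF 1 and -1.23 from MEF 2, and was at least 2-fold below MEF 2 for 21 genes (11.3% of all genes). Whether the CK lines were higher or lower than fibroblasts for these genes thus depended on the MEF array.

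**Figure D4:**
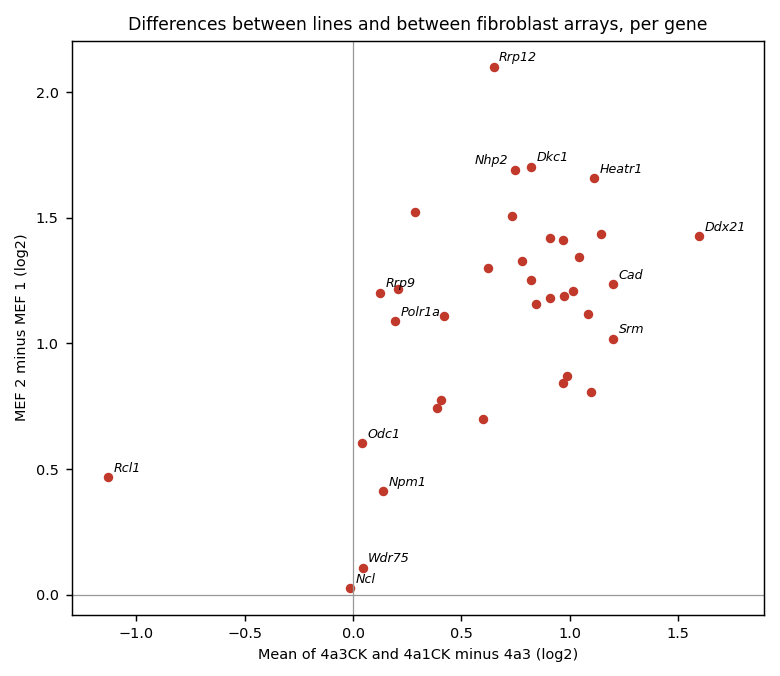
Log2 difference of MEF 2 minus MEF 1 (vertical) against the mean of both CK lines minus 4a3 (horizontal) for the 36 measured genes, 1 point per gene. All points lie above 0 on the vertical axis, and 34 lie right of 0 on the horizontal one.

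The difference of the CK lines from 4a3 and that of MEF 2 from MEF 1 share no array. Over the 36 genes they ran partly together (Pearson's r 0.53, Spearman's rho 0.42). The values were 0.11 and 0.16 over all genes, and 0.16 and 0.20 over genes with a mean of at least 6. Over 80 other ribosome biogenesis genes, among them Tnip1 read in error for Naf1, the values were 0.59 and 0.60. Genes are not independent replicates and are read on the same probe sets in both differences, so this is a description. In the plot of both differences Ddx21 and Heatr1 are high on both axes and Ncl and Wdr75 near 0 on both, with Rcl1 apart. Cad is high on the horizontal axis but near the middle of the list on the vertical one.

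Against primary hepatocytes the CK lines again had no gene called, with 0 of 36 higher and 0 lower by the limma rule, against 0.696% and 2.84% of all genes. Over all genes these were 119 higher and 485 lower calls, and 391 and 420 after subtracting array medians. At an unadjusted p under 0.05, 2 were higher (4.28% of all genes) and 4 lower (11.3%). Cad had the largest positive difference (1.39 ± 0.50, adjusted p = 0.218), followed by Wdr12 (1.02 ± 0.54, adjusted p = 0.453) and Npm1 (0.72 ± 0.29, adjusted p = 0.28). Heatr1 (-1.49 ± 0.47, adjusted p = 0.16), Bop1 (-1.27 ± 0.36, adjusted p = 0.122) and Odc1 (-1.17 ± 0.30, adjusted p = 0.0862) lay on the other side. Errors are SE with n = 2 and 3. Other probe sets gave 0.34 and -0.04 for Cad, 0.41 for Wdr12, 1.13 for Npm1, and 0.13 and -0.37 for Heatr1. Without PH 3, Odc1 was called lower (adjusted p = 0.0487). On the probe sets used, both CK lines lay above all PH arrays for Cad and Npm1 and below all of them for Heatr1, Bop1 and Odc1, while for Wdr12 the PH 3 value lay between the CK lines.

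How many genes lay above the hepatocytes depended on the scale, since PH 3 was raised as a whole. As deposited, both CK lines lay above all PH arrays for 4 genes (Dkc1, Nhp2, Npm1 and Cad; 6.06% of all genes) and below all for 9 (24.2%). The other Nhp2 probe set read 8.48 and 8.27 in the CK lines, below the 8.73 of PH 3. Other Cad probe sets did not keep this order either, while those of Dkc1 and Npm1 did. After subtracting array medians both CK lines lay above all PH arrays for 15 genes (31.5% of all genes) and below all for 7 (15.7%). These 7 were Polr1b, Rrp12, Heatr1, Noc4l, Pno1, Bop1 and Odc1. The median difference from PH was 0.09 as deposited, against -0.09 over all genes, and 0.29 after subtraction, against 0.10. Against PH 3 alone, the hepatocyte array in the same accession range as the lines, it was -0.46 as deposited. That value holds the offset of PH 3, whose array median was 5.80 against 5.06 and 5.00 in the CK lines. After subtraction the median of the 36 genes was 2.89 and 2.53 in the CK lines and 2.39 in PH 3, the other direction. As shares of the 36 genes, the counts above and below all PH arrays were 11.1% and 25% as deposited and 41.7% and 19.4% after subtraction.

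**Figure D5:**
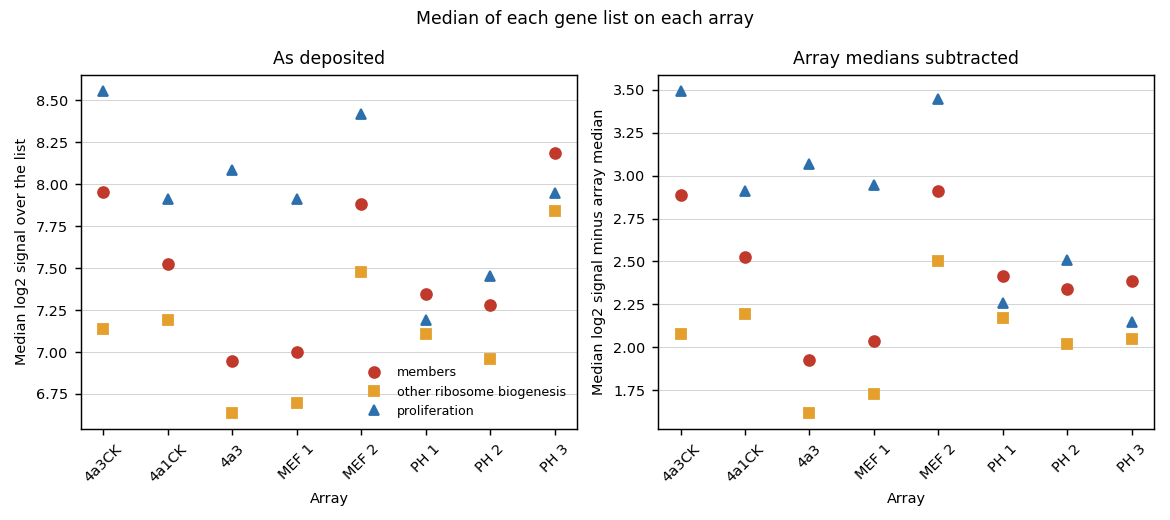
Median log2 signal per array over the 36 measured genes (circles), 80 other ribosome biogenesis genes (squares) and 24 proliferation genes (triangles), as deposited (left) and after subtracting each array's median over all genes (right). After subtraction the median of the 36 genes is 2.89 and 2.53 in the CK lines, 1.93 in 4a3, 2.03 in MEF 1, 2.91 in MEF 2 and 2.34 to 2.41 in the PH arrays.

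The median of the 36 genes over each array gave the same picture on one scale. With array medians subtracted it was 2.89 in 4a3CK and 2.53 in 4a1CK, against 1.93 in 4a3, 2.03 in MEF 1, 2.91 in MEF 2 and 2.41, 2.34 and 2.39 in PH 1, PH 2 and PH 3. The CK lines and MEF 2 lay above the PH arrays, and 4a3 and MEF 1 below them.

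Other genes of the same programme were read for comparison. Of 80 other ribosome biogenesis genes, 68 had a positive difference of the CK lines from 4a3. The shares were 48.8% of all genes and 61.5% of genes with a mean of at least 6. The median over the 80 was 0.41, against -0.01 and 0.11 over those sets. Both CK lines lay above 4a3 for 55 (29.3% and 38.8%). The 80 hold Tnip1, a different gene that a shared synonym put in place of Naf1, and it counts among the 68 and the 55. None of the 80 was called by limma. At an unadjusted p under 0.05, 0 passed as deposited and 4 after subtracting array medians, all higher. MEF 2 lay above MEF 1 for 74 of these 80 (53.2% of all genes), at least 2-fold for 22 (2.68%). All 9 genes of a list of RNA polymerase I and its factors had a positive difference from 4a3, with a median of 0.22 and none called. The 50 cytosolic ribosomal proteins, the building blocks themselves, did not share this, with 16 positive, a median of -0.03 and none called. Of 24 proliferation genes 16 were positive, with a median of 0.29 and none called.

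Among 28 other Myc targets, 24 were positive, with a median of 0.28, and 1 was called higher. That was Nme2, a nucleoside diphosphate kinase, at 11.07 and 11.32 in the CK lines against 7.0 in 4a3, with 11.46 to 11.53 in the MEF arrays and 11.26 to 11.89 in the PH arrays. Its difference was 4.20 ± 0.39 (SE, n = 2 and 1; limma adjusted p = 0.0178), with both CK lines higher. The CK lines lay near the MEF and PH arrays for Nme2 and 4a3 stood apart from all 7 others. The 24 positive Myc targets were 85.7% of their list, and the 16 positive proliferation genes 66.7% of theirs. These compare with 48.8% of all genes and 61.5% of genes with a mean of at least 6, so the proliferation share lay near the latter.

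Against MEF and PH a few genes of these lists were called. Ubtf, the factor that opens ribosomal DNA for RNA polymerase I, read 6.74 and 6.54 in the CK lines, against 8.02 and 8.34 in MEF 1 and MEF 2 and 8.03 to 8.33 in the PH arrays. It fell by 1.53 against MEF (limma adjusted p = 0.0293) and by 1.57 against PH (adjusted p = 0.018), with both CK lines below every MEF and PH array. Line 4a3 read 6.41 for Ubtf, below the CK lines. Against MEF, the helicase Ddx24 fell by 1.76 (adjusted p = 0.0374) and the transaminase Bcat1 by 3.38 (adjusted p = 0.00552). Against PH, the large subunit factors Eif6 and Ddx54 fell by 1.44 and 1.40 (adjusted p = 0.0476 and 0.0481), and the ribosomal protein Rpl14, the hexokinase Hk2 and the mitotic kinases Aurkb and Bub1 rose by 1.68, 2.80, 1.47 and 1.78 (adjusted p = 0.019, 0.0366, 0.0328 and 0.0366). All 50 ribosomal proteins were positive against MEF and against PH, as were 63.8% and 39.8% of all genes. Their medians were 0.42 and 0.45, against 0.16 and -0.09 over all genes. Of the 50, 0 and 1 were called higher, against 0.807% and 0.696% of all genes. Proliferation genes were positive against PH for 20 of 24 (39.8% of all genes), by a median of 1.00. Of these 2 were called higher (0.696% of all genes), or 10 after subtracting array medians (391 of all 17097 genes). Of the 80 other ribosome biogenesis genes, 0 were called higher and 2 lower against PH as deposited, and 3 higher and 1 lower after subtraction. Over all 17097 genes these were 0.696% and 2.84% as deposited, and 391 and 420 genes after subtraction. Beside the median of the proliferation genes, the 36 ribosome biogenesis and Myc target genes had one of 0.09 against PH.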

How the data were processed

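Biotin-labelled RNA of 8 samples was read on microarrays, 1 for each sample, whose probe sets carry Affymetrix-style names. What the authors deposited is a log2 signal for every probe set. The submitters' processing notes name RMA and Partek, with the version of each not given in the sources used here. Of 45141 probe sets, 28898 carried 1 gene symbol, 551 several and 15692 none, and 104 were controls. The members, gene lists and tests were chosen with earlier results of these data known.

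A linear model with 4 groups (CK lines, 4a3, MEF and PH) was fitted to 17097 genes on the deposited values with limma 3.58.1 (R 4.3.3; lmFit, eBayes), leaving 4 residual degrees of freedom. Tests were two-sided, with Benjamini-Hochberg adjustment over all genes. Single arrays and gene lists were described with counts and medians, without a test. The script was tested on simulated data. Full statistics were named for up to 6 called members per direction and comparison and for up to 3 uncalled members with the largest difference in each direction, and other lists gave up to 4 called genes plus the transduced factors and the Myc family. Promoters were those holding CACGTG. Summaries used pandas 2.3.3, numpy 2.4.6 and matplotlib 3.10.9 under Python 3.11.15.

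Alternatives were another scaling (array medians subtracted, quantile), the mean of all probe sets, unique probe sets, dim genes left out, a trended robust variance, each line as a group, only the compared groups, other thresholds, blocks by accession range or by the level of hybridization controls, PH 1 and PH 2 averaged, and each array left out. The comparison with genes of mean 6 or more was added after seeing the data.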

Additional observations from a re-analysis of the deposited data

How the results depend on the processing

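The CK lines against 4a3 had 0 members called in either direction under 20 alternatives and a median of 0.61 to 0.82 under 19, but every value there rests on the single 4a3 array. Against MEF, 1 member (Rcl1) was called higher with array medians subtracted, with quantile normalization and without PH 3, so the count ranged from 0 to 1 over left-out arrays, and 1 (Rrp12, -1.83) was called lower with a block by accession range. The median difference from MEF was -0.53 with a block by hybridization control level, -0.45 within the first accession range (MEF 2 only), -0.45 without MEF 1 and 0.76 without MEF 2, which sets the range over left-out arrays. Against PH, called lower were 3 members with the accession block (Rrp12, Heatr1 and Noc4l), 1 with the control level block (Noc4l) and 1 without PH 3 (Odc1, adjusted p = 0.0487), for a range of 0 to 1 over left-out arrays. The median difference from PH was -0.54 with the accession block and -0.46 with the control level block and within the first accession range (PH 3 only). Over all genes the median with the control level block was -0.563 against MEF and -0.565 against PH, so the members lay no lower than all genes there. With the accession block the median over all genes was -0.37 against PH. The array median of PH 3 was above those of the CK lines, and the value against PH 3 holds this offset. The cause of these shifts was not tested. The 4a3 comparison lies wholly within one accession range and on one side of the control levels. Of 1998 values of single members under alternatives, 1855 kept their direction and their side of the threshold, 9 newly passed it, and 134 changed sign (6 against 4a3, 63 against MEF and 65 against PH), 0 of them called before or after. Against 4a3 these had small differences. With quantile normalization Ncl was 0.0133, Rrp9 -0.0281 and Odc1 -0.10, and over left-out arrays Ncl ranged from -0.0277 to 0.00436, Wdr75 from -0.13 to 0.22 and Odc1 from -0.21 to 0.29. Against MEF, Cad was -0.66 with unique probe sets, and Rrp12 lay between -2.02 (without MEF 1) and 0.0768 (without MEF 2). Over all genes, calls against MEF (138 higher and 426 lower) were 723 and 766 without PH 3, 413 and 569 with array medians subtracted, 402 and 604 with quantile normalization, 358 and 540 with each line as a group, 109 and 2056 with the control level block, 74 and 441 with the accession block, 54 and 200 without MEF 1, 61 and 347 without MEF 2, 274 and 338 without 4a1CK, 86 and 310 without PH 2 and 6 and 18 with only the compared groups. Calls against PH (119 higher and 485 lower) were 724 and 735 without PH 3, 391 and 420 with array medians subtracted, 361 and 476 with quantile normalization, 277 and 617 with each line as a group, 120 and 2560 with the control level block, 52 and 451 with the accession block, 52 and 257 with PH 1 and PH 2 averaged, 52 and 249 without PH 1, 52 and 252 without PH 2, 184 and 398 without 4a3CK and 226 and 334 without 4a1CK. Calls against 4a3 (2 higher and 6 lower) were 57 and 23 without 4a1CK, 16 and 33 without 4a3CK, 9 and 15 with each line as a group, 1 and 13 with quantile normalization, 1 and 6 with array medians subtracted, 1 and 3 with the control level block or without PH 3, and 0 and 0 with only the compared groups. No paired analysis was possible because the lines carry no replicate numbers, and the numbers that MEF and PH share belong to groups not set against each other here.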
